A study of Mus musculus with 2 samples.

Results

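The small leucine-rich proteoglycans of the extracellular matrix were followed in 2 subcutaneous mouse tumours of the cell line RMS3. Their members were taken by gene name, as the spots named Dcn, Bgn, Lum, Fmod, Omd, Ogn, Prelp, Aspn, Kera or Epyc among the spots that are not controls. The array carried 9 of these 10 names on 12 spots, of 43379 such spots in all, with a pair of probes each for Dcn, Bgn and Prelp and a single probe for each other gene. No spot was named Epyc.

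Both tumours belong to 1 group, RMS3 tumours in male C57BL/6J mice. Tumour 2 (RMS3-#2) and tumour 1 (RMS3-#1) were each grown from 1000000 RMS3 cells given under the skin in 200 µl of buffer and were taken 2 weeks later. RMS3 is a line that the labels call PRMS without spelling out the letters, and it is the only line, so nothing here separates properties of this line from those of other tumours of its kind. The treatment text calls the harvested tumours metastatic, whereas the other labels describe tumours made by subcutaneous injection. No uninjected, cultured or other control entered the series, and the ages of the mice are not given in the sources used here. Total RNA of each whole tumour was put on its own single-colour Agilent array, so host cells within the tumour were measured together with the injected cells.

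Small leucine-rich proteoglycans are secreted proteins built around a solenoid of leucine-rich repeats, which most of them carry together with chondroitin, dermatan or keratan sulfate chains. Many bind fibrillar collagens, and their loss in mice is known to disturb the width and spacing of collagen fibrils in skin, tendon and cornea. Decorin and biglycan also bind growth factors and cell-surface receptors, among them transforming growth factor beta and, for soluble biglycan, Toll-like receptors. In many tissues fibroblasts are a main source of decorin and lumican, but cells of bone, cartilage, muscle and vessel walls make members of the family too.

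A level is the log2 processed signal of a spot minus the 75th percentile of its array, and a difference is tumour 2 minus tumour 1, so a negative one means lower in tumour 2. Levels of different probes are not set against each other, since probes differ in how brightly they respond. A level counts as detected where the scanner software called the spot well above background. With 1 tumour on each side there is no replicate check of any difference and no p-value, the number of arrays limits the precision, and the names of the tumours carry no order. The 175 probes printed several times give a technical yardstick within an array: the difference of a repeat spot had a standard deviation of 0.23 (log2), or 0.28 for the dimmest 25% of these probes. This yardstick leaves out any shift between the arrays and the spread between tumours. In bulk samples such as these, fewer cells of a type and less RNA per cell cannot be told apart.

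The share of spots well above background, controls apart, was 66.1% in tumour 2 and 62.3% in tumour 1, and 69 and 1128 spots had been marked as outliers on the array of tumour 2 and on that of tumour 1. Marked spots were left out, as were spots within 2 rows and columns of a mark on the array of tumour 1 or of 1 of the 11 spots of high local background on the array of tumour 2. Among 10524 genes with a symbol that were detected on both arrays, the median difference was 0.02, and 198 genes were at least 2-fold lower in tumour 2 against 283 at least 2-fold higher, so that 41.2% of these genes were lower. Without scaling between arrays 60.6% of such genes were lower. Of the skeletal muscle lineage markers 8 were measured away from the marks, and all 8 were detected in both tumours, against 70% of all measured genes. The tumours hold host cells too, so this count does not check the label. Myod1, a master regulator of that lineage, had levels of -5.59 in tumour 2 and -5.24 in tumour 1. These are close to the lowest detected level of any spot, which was -6.19 in tumour 2 and -5.78 in tumour 1. Every other detected marker of the list had higher levels in both tumours, up to 2.99 in tumour 2 and 2.02 in tumour 1 for Myh8. Probes differ in response, so these levels do not rank the markers.

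The map of spot positions shows where the proteoglycan spots lie on the array surface. Of the 12 spots, 3 lay next to marked spots, and these were the only spots of Omd, Ogn and Fmod. Of the 9 genes on the array, 6 were therefore measured away from the marks, and 5 of these, Dcn, Bgn, Lum, Prelp and Aspn, were detected in both tumours. Kera was not. Of all measured genes with a symbol 70% were detected, and over all unmarked spots, near marks or not, 5 of 9 proteoglycan genes were detected against 68.7% of all genes.

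**Figure D1:**
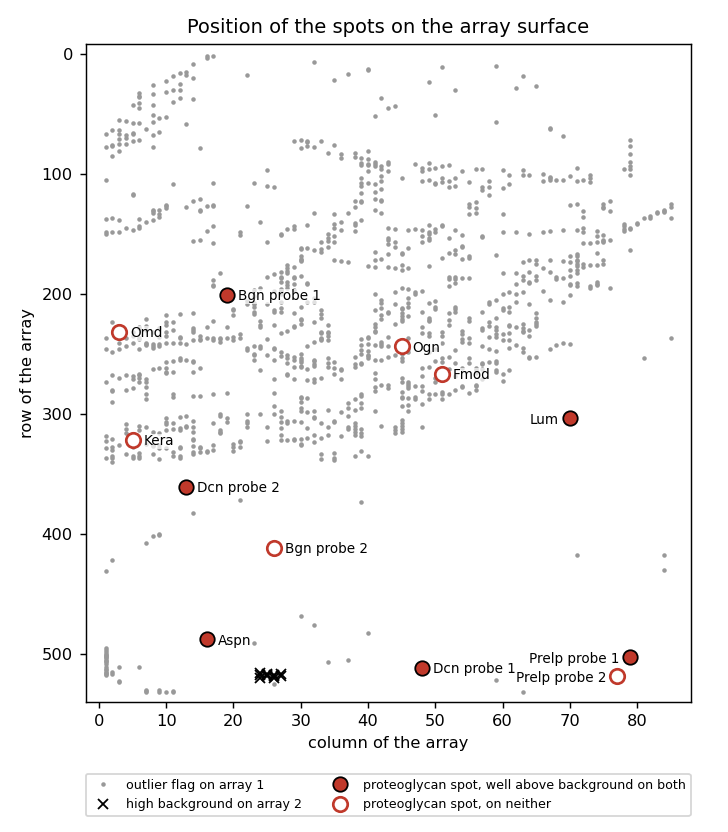
Each symbol is a spot at its row and column on the array. Grey points are outlier marks of tumour 1's array, crosses are spots of high background on tumour 2's array, filled circles are proteoglycan spots well above background on both arrays and open circles those on neither. The marks lie mostly above row 338 of 532, and Omd, Ogn and Fmod sit among them, whereas both Dcn probes, Aspn and both Prelp probes lie below that row.

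Decorin, encoded by Dcn, is a class I member with a single glycosaminoglycan chain and binds collagen and transforming growth factor beta. Its first probe, A_51_P334104, is designed to NM_007833 and gave a processed signal of 110436 in tumour 2 and 181000 in tumour 1, which are levels of 6.94 in tumour 2 and 7.51 in tumour 1. The mean signal of this spot was 1720 times its local background in tumour 2 and 3451 times in tumour 1, and the spot was not saturated in either. The difference of -0.57 is a level 1.49-fold higher in tumour 1, with an error of 0.20 (log2) from the software's own error of each signal. Among the 2105 genes in the brightest 20% of all detected genes, 41 genes (1.95%) had a difference this low or lower. The value of a gene can be a median of several probes, whereas this is the difference of 1 probe.

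The second Dcn probe, A_52_P252726, is designed to the cDNA clone AK052759, which the array's annotation describes as unclassifiable although it carries the name Dcn. It gave a signal of 36.7 in tumour 2 and 129 in tumour 1, at levels of -4.62 in tumour 2 and -2.95 in tumour 1. Both spots were well above background, at 1.93 times the local background in tumour 2 and 4.04 times in tumour 1. The difference was -1.67 with a software error of 0.24, a level 3.19-fold higher in tumour 1. Both probes were lower in tumour 2, but their differences lay 1.10 apart, or 2.14-fold. Among 3188 genes for which more than 1 probe was detected, the probes lay at least that far apart in 8.12% and at least 2-fold apart in 9.76%. The gene's difference of -1.12, the median of the pair and 2.18-fold higher in tumour 1, therefore rests in equal parts on a bright probe that was less than 2-fold apart and on a dim one of uncertain assignment.

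Biglycan, encoded by Bgn on the X chromosome, is the class I member closest to decorin and usually carries a pair of chains. Its first probe (NM_007542) gave a signal of 412.2 in tumour 2 and 371 in tumour 1, at levels of -1.13 in tumour 2 and -1.42 in tumour 1. It was 11.0 times the local background in tumour 2 and 9.38 times in tumour 1. Bgn was the only detected member that was higher in tumour 2, by 0.29 or 1.23-fold, with a software error of 0.20. This is close to the 0.23 of repeat spots, and 24.1% of all detected genes were higher by more. The second Bgn probe (BC057185), at levels of -8.25 in tumour 2 and -6.18 in tumour 1, was not well above background in either tumour and took no part in the gene's value.

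Asporin, encoded by Aspn, is a class I member with a run of aspartate residues near its start and is known in mouse and human for opposing transforming growth factor beta in cartilage. Its probe (NM_025711) gave a signal of 21.3 in tumour 2 and 44.7 in tumour 1, at levels of -5.40 in tumour 2 and -4.48 in tumour 1. These lie only 0.79 above the lowest detected level in tumour 2 and 1.30 above it in tumour 1. The difference of -0.93, a level 1.90-fold higher in tumour 1, had the largest software error of the detected probes, 0.34. In the dimmest 20% of genes, to which this probe belongs, 5.56% of genes were this low or lower.

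Lumican, encoded by Lum, is a class II member with keratan sulfate chains that is needed for a clear cornea in mice and is made by fibroblasts in skin and tendon. Its probe (NM_008524) gave a signal of 3445 in tumour 2 and 5140 in tumour 1, at levels of 1.93 in tumour 2 and 2.37 in tumour 1. It was 77.3 times the local background in tumour 2 and 116 times in tumour 1. The difference was -0.44 with a software error of 0.20, a level 1.35-fold higher in tumour 1. Lum lies in the brightest 20% of genes, where 4.18% of genes were this low or lower. Of all detected genes 11.9% were lower by more.

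Prolargin, encoded by Prelp, is a class II member whose basic start binds heparan sulfate and links basement membranes to the matrix beneath. Its first probe, A_52_P486260 (NM_054077), gave a signal of 52.4 in tumour 2 and 159 in tumour 1, at levels of -4.10 in tumour 2 and -2.65 in tumour 1. It was 2.18 times the local background in tumour 2 and 4.67 times in tumour 1. The difference was -1.46 with a software error of 0.22, a level 2.75-fold higher in tumour 1, and 0.57% of all detected genes were lower by more. Within the dimmest 20% of genes 1.57% of genes were this low or lower. The second Prelp probe had signals of 3.38 in tumour 2 and 4.96 in tumour 1 and was not well above background in either tumour.

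The remaining members were not well above background in either tumour. Keratocan, encoded by Kera, is the cornea's keratan sulfate member and gave a signal of 6.49 in tumour 2 and 3.78 in tumour 1. Fibromodulin, encoded by Fmod, is a class II collagen binder of tendon and cartilage and gave 10.8 in tumour 2 and 3.65 in tumour 1, next to marked spots. Osteomodulin, encoded by Omd and found in bone, gave 3.71 in tumour 2 and 3.73 in tumour 1. Osteoglycin or mimecan, the class III member encoded by Ogn, gave 5.99 in tumour 2 and 15.6 in tumour 1. For Omd and Ogn too the only spot lay next to marked spots, so these 3 genes have no value away from the marks.

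Epiphycan, the class III member of growth plate cartilage encoded by Epyc, was searched for by name only and had no spot. A pair of spots under its older name Dspg3 carries the Epyc accession NM_007884, outside the choice by name. They gave 2.61 and 3.19 in tumour 2, and 3.97 and 4.28 in tumour 1, and neither was well above background in either tumour. No order between the tumours is read from any of these values, since spots at background were themselves shifted: the 10202 spots not above background on either array had a median level of -8.15 in tumour 2 and -7.84 in tumour 1.

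**Figure D2:**
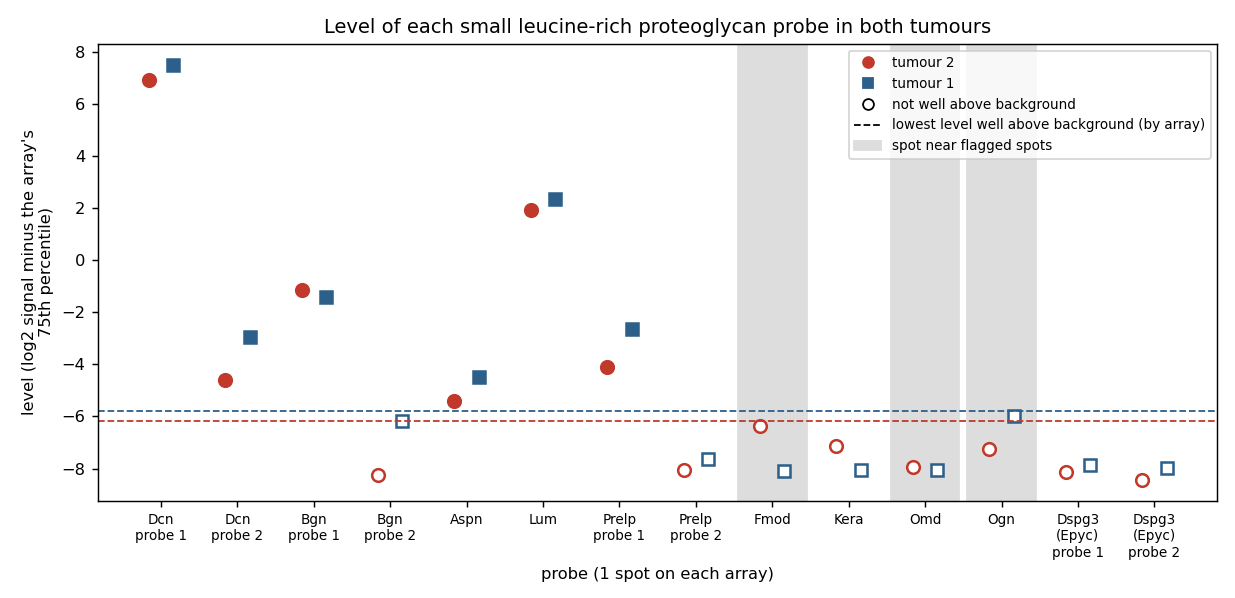
The vertical axis is the level (log2 signal minus the array's 75th percentile) of each probe, circles for tumour 2 and squares for tumour 1, filled where the spot was well above background. Dashed lines are the lowest detected level of each array, -6.19 for tumour 2 and -5.78 for tumour 1, and grey bands mark spots next to marked ones. Of the 6 probes with filled symbols 5 are lower in tumour 2, and every open symbol lies below both lines or between -5.78 and -6.19.

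Set side by side, the difference was -1.46 for Prelp, -1.12 for Dcn, -0.93 for Aspn, -0.44 for Lum and 0.29 for Bgn. Thus 4 of the 5 detected members were lower in tumour 2, against 46.9% of all detected genes, and 2 were at least 2-fold lower, against 1.88% of all detected genes. None was at least 2-fold higher, against 2.69% of all detected genes. The median of the 5 was -0.93 and that of all genes 0.02. With 5 genes these are counts and no test, and the members are not independent replicates of the difference between these tumours.

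The larger differences stood at the dim end. The second Dcn probe, Prelp and Aspn all lie in the dimmest 20%, where the standard deviation of the difference over genes was 0.61 and 4.47% of genes were at least 2-fold lower in tumour 2. In the other detected genes the share was 1.24%. The 3 detected member probes outside the dimmest 20%, the first probes of Dcn and Bgn and that of Lum, had differences of -0.57 for Dcn, 0.29 for Bgn and -0.44 for Lum, and none was 2-fold apart. In the brightest 20%, which holds the first Dcn probe and Lum, the standard deviation over genes was 0.36. Only Prelp remained at least 2-fold lower when probes without a RefSeq accession were left out, a choice made after seeing the data. None of the 5 remained so under normexp, with the background re-estimated from spots outside the area of high background. That fit gave -0.86 for Prelp and -0.79 for Dcn. It also added 50 to every signal, which shrinks differences between dim signals, so the background estimate alone was not tested.

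**Figure D3:**
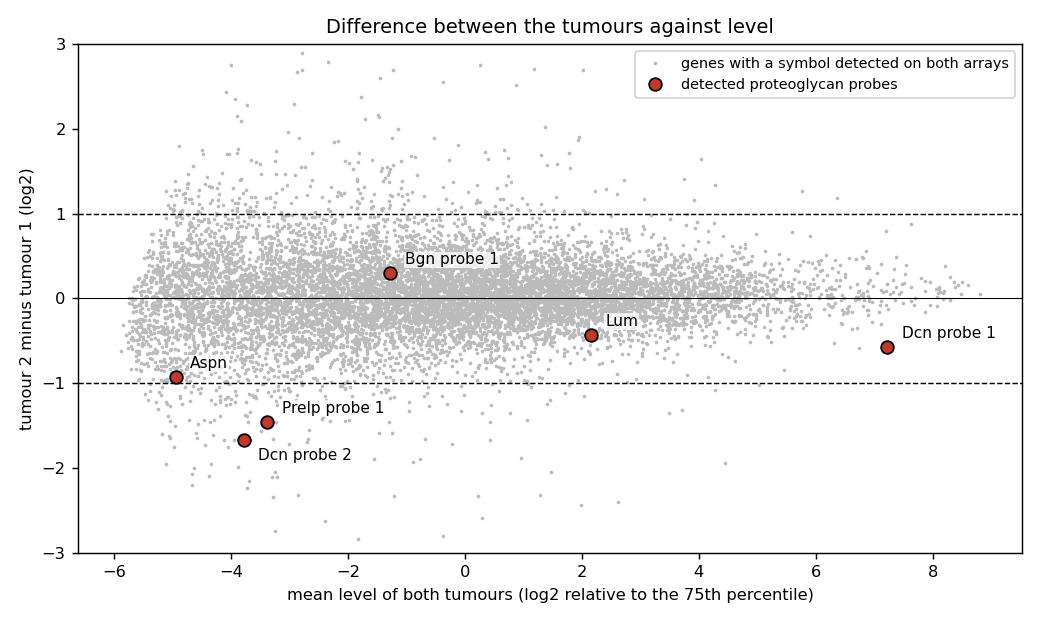
The vertical axis is the difference between tumour 2 and tumour 1 (log2) and the horizontal axis the mean level of both tumours. Grey points are the 10524 detected genes (18 of them lie outside the plotted range), large points the 6 detected proteoglycan probes, and dashed lines 2-fold in each direction. The grey cloud narrows towards bright genes, and the first Dcn probe and Lum lie in its lower part although they are less than 2-fold apart.

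The family is clustered in the mouse genome, and the order of genes was read from the RefSeq annotation of GRCm38.p6. Chromosome 10 holds Dcn, Lum, Kera and Epyc in a row, chromosome 13 holds Aspn, Omd and Ogn, chromosome 1 holds Prelp and Fmod, and Bgn stands alone on chromosome X. Detected and undetected members lay side by side in 3 of these places: Dcn and Lum were detected and Kera was not, Prelp was detected and Fmod was not, and Aspn was detected while Omd and Ogn were not, though the last 2 and Fmod were read from spots next to marks.

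The nearest detected genes outside the family lay closer to 0 than the detected members on chromosomes 10, 13 and 1, but not on chromosome X. On chromosome 10 these were Btg1 at -0.14 and Atp2b1 at -0.17, on either side of the cluster, against -1.12 for Dcn and -0.44 for Lum. On chromosome 13 they were Cenpp at 0.01, Nol8 at -0.16 and Iars at 0.12, against -0.93 for Aspn, and Ecm2, a relative of the family between Cenpp and Aspn, was not above background. On chromosome 1 Btg2 had 0.33 and Chit1 0.02, against -1.46 for Prelp. On chromosome X Haus7 had -0.22 and Dusp9, a phosphatase of kinase signalling, 1.05, with 0.29 for Bgn between them.

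The detected members whose promoters the RefSeq table holds are Prelp, Aspn and Bgn, and these are shown. It holds none for Dcn or Lum. A link between these windows and the differences was not tested. Each is the 250 bases before the annotated start in GRCm38.p6, on the strand of the gene. Capitals mark every match, on either strand, to the GC box GGGCGG, the TATA box TATAAA, the CCAAT box CCAAT or the E-box CANNTG.
Prelp, chr1:133921402-133921651, minus strand: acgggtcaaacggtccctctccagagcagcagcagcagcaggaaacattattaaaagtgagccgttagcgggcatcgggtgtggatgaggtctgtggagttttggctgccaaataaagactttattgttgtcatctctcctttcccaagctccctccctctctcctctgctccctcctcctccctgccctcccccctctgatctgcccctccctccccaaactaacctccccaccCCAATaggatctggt
Aspn, chr13:49544193-49544442, plus strand: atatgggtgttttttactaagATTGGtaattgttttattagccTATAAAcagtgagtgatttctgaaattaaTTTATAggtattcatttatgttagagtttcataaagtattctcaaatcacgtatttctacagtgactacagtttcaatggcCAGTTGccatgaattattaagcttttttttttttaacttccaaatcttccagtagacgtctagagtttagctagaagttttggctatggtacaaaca
Bgn, chrX:73483351-73483600, plus strand: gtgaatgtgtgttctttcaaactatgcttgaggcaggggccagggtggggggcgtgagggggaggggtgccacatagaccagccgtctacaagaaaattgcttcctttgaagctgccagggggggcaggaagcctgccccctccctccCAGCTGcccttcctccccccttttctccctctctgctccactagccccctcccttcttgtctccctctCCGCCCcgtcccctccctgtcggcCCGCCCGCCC

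These 3 windows have little in common. Bgn has 64.4% G and C, 7 CpG pairs, 3 GC boxes of which 2 overlap, and 1 E-box. Prelp has 55.6% G and C, 5 CpG pairs and 1 CCAAT box close to the start. Aspn has 30% G and C, 2 CpG pairs, 2 TATA boxes, 1 CCAAT box and 1 E-box, and only 1.47% of the 32851 promoters in the table have less G and C. The median promoter has 52.4% G and C and 6 CpG pairs.

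The motifs themselves are common or fairly common. A GC box stands in 32.7% of all promoters of this length, a TATA box in 12.4%, a CCAAT box in 33.8% and an E-box in 66.2%. The AP-1 sequence TGANTCA, found in 6.75% of promoters, matched in none of the member promoters in the table, which are those of 8 members. A match to such short letters is a description of the window only.

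The partners of the proteoglycans were followed in lists of genes by role. Counts of lower genes in these lists stand beside 46.9% of all detected genes lower in tumour 2. Of the enzymes that build the linker and the chondroitin or dermatan sulfate chains, 14 were detected, 9 lower and 5 higher in tumour 2, with none 2-fold apart and a median of -0.05, which turned to 0.38 in the rows below the marked area. Chst3, which sulfates chondroitin, had levels of -3.23 in tumour 2 and -2.57 in tumour 1 and differed by -0.66. Csgalnact1, which starts the chondroitin chain, differed by -0.42, whereas Chpf, a polymerising factor, differed by 0.49 and Chst12, a sulfotransferase, by 0.31. Of the keratan sulfate enzymes 5 were detected, with a median of 0.07, from -0.55 for the galactosyltransferase B4galt1 to 0.83 for the sulfotransferase Chst2. Tpst2, which sulfates tyrosines such as those of fibromodulin, was at 0.26.

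Of the fibrillar collagens and other collagen-associated genes, 12 were detected, 9 lower and 3 higher in tumour 2, against 46.9% of all detected genes lower. The median of the 12 was -0.18. The one at least 2-fold lower was Col14a1, a collagen of fibril surfaces that binds decorin, at -4.78 in tumour 2 and -3.11 in tumour 1, which differ by -1.67. Col5a2, a chain of the collagen that sets fibril width, differed by -0.74. The matrix glycoprotein gene Thbs1 was higher in tumour 2 by 0.95 and Col6a2 by 0.50.

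Of 15 detected signalling partners 11 were lower and 4 higher in tumour 2, against 46.9% of all detected genes lower. None was 2-fold apart, and the median of the 15 was -0.05. Tgfb2, a ligand bound by decorin, had levels of -0.28 in tumour 2 and 0.69 in tumour 1 and differed by -0.96. Tlr2, a receptor for soluble biglycan, differed by -0.72. Erbb4 and Igf1r, receptors that decorin is known to bind, differed by 0.36 and 0.13.

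The proteases that cut these proteins had 9 detected members, 4 lower and 5 higher in tumour 2, none 2-fold apart, with a median of 0.22 that turned to -0.12 over all unmarked spots. Adamts5 was lower by a difference of -0.75 and the stromelysin Mmp3 by -0.31, while Adamts1 differed by 0.64 and the membrane protease Mmp14 by 0.52. Among other proteoglycan core proteins 12 were detected, 5 lower and 7 higher, with a median of 0.11. Gpc3 and Sdc2, which carry heparan sulfate at the cell surface, differed by -0.51 and -0.27, whereas Cspg4 differed by 0.79 and Sdc4 by 0.49. Of 7 other leucine-rich matrix genes 6 were measured away from marks. Only Nyx of these was detected on both arrays, at 0.29, whereas 70% of all measured genes were. Chad, Podn and Podnl1 were detected in tumour 2 only. Over all unmarked spots Tsku was detected too.

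Some markers of cell types also differed between the tumours, though 2 tumours cannot show that they vary together with the proteoglycans. Of the fibroblast markers 6 of 10 were measured away from marks, and all 6 were detected, against 70% of all measured genes. In tumour 2, 5 were lower, against 46.9% of all detected genes, and 1 was higher. Of the 6, 3 were at least 2-fold lower, against 1.88% of all detected genes. The median of the 6 was -0.90, beside -0.93 for the proteoglycans. Over all unmarked spots, near marks or not, the medians were -0.49 for the fibroblast markers and -1.13 for the proteoglycans. Mfap5, a microfibril gene, differed by -1.95, at levels of -5.31 in tumour 2 and -3.36 in tumour 1. It lies in the dimmest 20% of genes, where 4.47% were at least 2-fold lower in tumour 2. Postn, a matrix gene of activated fibroblasts, differed by -1.31 and Mfap4 by -1.14, while Thy1 differed by 0.28. The summed linear level of the 6 fibroblast markers was 15.1 in tumour 2 and 28.1 in tumour 1, most of it from Postn. That of the 5 proteoglycans was 6.59 in tumour 2 and 10.6 in tumour 1. The latter sum takes Dcn at the median of its pair of probes, so it leaves out most of the bright probe's signal. Such sums add probes that differ in response, so they are compared only between the tumours and within a list.

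Other cell types that make these proteins were followed by short lists of markers. Here and in the lists that follow, counts of detected markers stand beside 70% of all measured genes. With so few genes they do not show which of these cells were present. Of 8 cartilage markers 4 were detected, with a median of 0.18 and a summed level of 9.23 in tumour 2 and 11.2 in tumour 1, while Col9a1, Matn1, Matn3 and Hapln1 were not above background. Of 4 tendon markers 3 were detected, with a median of -0.24 (-0.91 over all unmarked spots), and Tnmd was not above background. The summed levels of the 3 were 2.11 in tumour 2 and 2.47 in tumour 1. Mkx differed by -1.08, at levels of -4.79 in tumour 2 and -3.71 in tumour 1. Of 6 bone markers 4 were detected, with a median of -0.39 (-0.06 in the rows below the marked area) and Sp7 not above background. The summed levels of the 4 were 0.420 in tumour 2 and 0.469 in tumour 1. Ibsp differed by -1.62, at levels of -5.87 in tumour 2, close to the lowest detected level of -6.19, and -4.25 in tumour 1. Mkx and Ibsp both lie in the dimmest 20% of genes.

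Endothelial markers were lower in tumour 2 in 6 of 7 genes, against 46.9% of all detected genes. The median of the 7 was -0.37, with summed levels of 7.77 in tumour 2 and 10.5 in tumour 1. Of the adipocyte markers 2 of 5 were detected, with a median of -1.05 and summed levels of 1.39 in tumour 2 and 2.01 in tumour 1, and Cfd differed by -1.69. The 4 detected macrophage markers of 6 had a median of 0.00 and summed levels of 2.96 in tumour 2 and 3.09 in tumour 1.

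The medians of 3 further lists were above 0, with sizes or signs that moved between settings. Of the 8 skeletal muscle lineage markers 6 were higher and 2 lower in tumour 2, against 46.9% of all detected genes lower. Des at 1.24 and Myh3 at 1.07 were at least 2-fold higher, against 2.69% of all detected genes. The 8 had a median of 0.50 and summed levels of 9.87 in tumour 2 and 5.40 in tumour 1. That median was 0.09 without the detection filter, 0.13 with RefSeq accessions only, 0.30 over all unmarked spots and 0.87 where every spot had to be well above background. The 4 detected mural cell markers of 6 had a median of 0.35 and summed levels of 2.99 in tumour 2 and 1.85 in tumour 1, with Tagln at 1.03. Their median turned to -0.25 both over all unmarked spots and without the detection filter, and was 0.96 among the brighter 50% of probes. Of the keratinocyte markers 3 of 5 were detected, with a median of 3.55 and summed levels of 5.44 in tumour 2 and 4.36 in tumour 1. Krt14 had levels of -0.62 in tumour 2 and -4.26 in tumour 1, and Krt5 had -1.66 in tumour 2 and -5.21 in tumour 1. Lor, the other detected marker, differed by only 0.06, at 2.16 in tumour 2 and 2.10 in tumour 1. It gave most of both summed levels. Krt1 was detected in tumour 1 only and Krt10 in tumour 2 only. The keratinocyte median was 1.64 over all unmarked spots, 2.08 with normexp fitted without the area of high background and 0.53 without the detection filter. The part of any of these cell types in the differences of the proteoglycans was not tested.

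**Figure D4:**
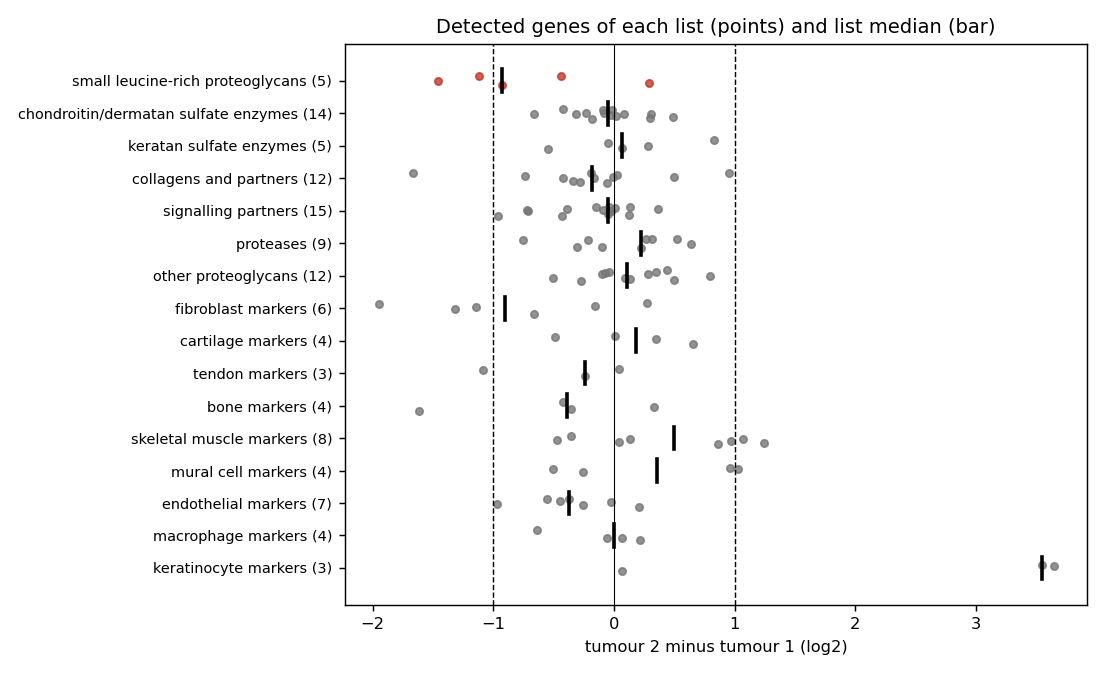
Points are the differences (tumour 2 minus tumour 1, log2) of the detected genes of each list, bars their medians, numbers in brackets the detected genes, and dashed lines 2-fold. Lists with fewer than 3 detected genes, such as the adipocyte markers, are not drawn. The medians are -0.93 for the proteoglycans, -0.90 for the fibroblast markers, 0.50 for the skeletal muscle markers and 3.55 for the keratinocyte markers.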

How the data were processed

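Each deposited file holds the intensity of every spot as Agilent Feature Extraction wrote it: a mean signal, a local background and a processed signal. The version is 9.1.3.1 in the file headers, whereas the submitters' processing notes name version 8. The deposited value table equalled the processed signal at all 45018 spots, so it is linear and not centred, and its medians were 67.5 for tumour 2 and 63.3 for tumour 1. Both arrays lie on 1 slide and were scanned together. No scaling between arrays was recorded.

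Processed signals were divided by the array's 75th percentile, taken over the 31299 of 43379 spots that were kept, and log2 was taken. Outlier-marked spots and those near them or near high background were left out. A probe was detected where at least 50% of its kept spots were well above background on each array, and the differences of a gene's detected probes, saturated ones aside, were summarised by their median. With 1 group of 2 tumours no test was run. The software's error and the repeat spots cover technical error only. Names came from the file of tumour 2, since 47 spots are named otherwise in that of tumour 1, and from RefSeq accessions (GRCm38.p6 table), which matched 55.7% of 41174 probes. Promoters are RefSeq's, for 8 of 10 members. Of 180 genes, which are the 10 members and those of 18 companion lists, 7 besides Epyc were not found under their names.

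The members and the lists were chosen with earlier results of these data known. So was the omission of spots near marks or high background, where an earlier analysis of these data had shown lost signal. All members are named. Of each list, genes at least 2-fold apart, the 2 with the largest difference in each direction and the genes beside a member on its chromosome may be named. Markers not above background are named too, as are Lor and some genes not detected on both arrays. Among the alternatives, 13 were planned and 1 was added after seeing the data. Normexp, quantile and loess fits ran in limma 3.58.1 (R 4.3.3), all else in Python 3.11.15. The probe and gene steps were also run on simulated data. These took both arrays from that of tumour 2, with the same noise at every level and the same detection calls. They therefore check neither detection, nor the noise of dim probes, nor signal lost near marks. Each normexp fit added 50 to every signal.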

Additional observations from a re-analysis of the deposited data

How the results depend on the processing

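All 5 detected proteoglycans kept their direction with quantile or cyclic loess scaling, with the median as scale and in the unscaled values. Normexp on the mean signal moved Lum from -0.44 to -1.12 and Bgn from 0.29 to 0.91. It turned Dcn to 0.0896, Prelp to 1.70 and Aspn to 2.69. It also turned the medians of the collagens (0.52), proteases (-0.17), linker and chondroitin or dermatan sulfate enzymes (0.22), endothelial (0.79), tendon (1.13) and bone markers (2.18), and gave -0.06 for the fibroblast and 1.58 for the skeletal muscle markers. With it 1 member was at least 2-fold lower in tumour 2, 2 were at least 2-fold higher, and the median of the members was 0.91, but this fit included the area of high background in tumour 2 and moved the median of all genes to 0.46, with 510 genes at least 2-fold lower and 4095 at least 2-fold higher (11.1% lower). Fitted without that area, normexp gave 0 members at least 2-fold lower, a median of -0.43, and 66 against 126 genes. The 50 that normexp added to every signal shrinks dim differences in this count. The count of members at least 2-fold lower, 2 as reported, was 1 without the detection filter, where Bgn stood at -0.89, 0 among the brighter 50% of probes, which hold Dcn and Lum but not Prelp, Aspn or Bgn, 1 with the brightest probe of a gene and 1 with RefSeq accessions only. The median, -0.93 as reported, was -0.50 for Dcn and Lum alone among the brighter 50% of probes and -0.57 with either the brightest probe or RefSeq accessions only. Over all unmarked spots, 414 genes were at least 2-fold lower and 666 higher, and in unscaled values 307 and 200. Both settings gave 3 members at least 2-fold lower, and moved the median of all genes by -0.16 and -0.14. The rows below the marked area (below row 338) held 3 detected members, against 5 as reported. Leaving out either tumour left 5 members detected and no difference to compute. No paired analysis was possible because there is 1 group. The signals of Aspn, Prelp and the second Dcn probe were dim, at most 4.67 times the local background.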
